A study of Bos taurus and Mus musculus with 16 samples.

Results

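The SLC25 carriers are nuclear-encoded proteins, most of which sit in the inner mitochondrial membrane and exchange nucleotides, phosphate, amino acids, carboxylic acids and cofactors between the cytosol and the mitochondrial matrix. The ADP/ATP carriers bring ADP in and take ATP out, the phosphate carrier supplies the phosphate for ATP synthesis, and the aspartate/glutamate carriers form part of the malate-aspartate shuttle, which passes reducing equivalents from the cytosol into mitochondria. Preimplantation embryos depend on mitochondrial ATP production, and glycolysis gains weight as the blastocyst forms. Carriers were taken as all gene symbols made of SLC25A and a number. There were 42 of them among 16655 genes in the mouse table and 38 among 14852 genes in the bovine table, and 36 symbols stood in both.

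Expression was measured in mouse morulae on day 3.25 (2 control and 2 edited samples) and in bovine blastocysts on day 7.0 (6 control and 6 edited samples). All zygotes received mRNA of BE3, a cytosine base editor made of a Cas9 nickase and a cytidine deaminase. The edited groups also received a mix of single guide RNAs against Tead4 (mouse) or TEAD4 (bovine), which encodes a DNA-binding transcription factor of the Hippo pathway, and the controls received no guide RNA. Effects of the guide RNAs other than on this gene therefore cannot be told apart from loss of the gene. The number of embryos per sample and the use of separate injections are not given in the sources used here. P-values therefore measure the spread between samples, which may be technical. In whole embryos, fewer cells of a type and less RNA per cell cannot be told apart.

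Libraries held 3642907 to 6109425 reads assigned to genes in mouse and 817329 to 2501592 in cattle. Levels are normalized reads, that is gene counts divided by the size factor of the sample. Tead4 stood at 458 to 519 normalized reads in mouse control and 57.2 to 76.5 in edited samples, and TEAD4 at 61.2 to 125 in bovine control and 22.6 to 65.6 in edited samples (limma adjusted p = 0.235). All 8 embryo markers looked up (Pou5f1, Nanog, Sox2, Cdx2, Gata3, Krt8, Krt18 and Tfap2c) had a mean of at least 10 in mouse, and 7 of 8 did in cattle, all except CDX2. Their sum in mouse was 8154 to 9480 in control and 4035 to 4754 in edited samples, which does not show which of the 8 were lower. In cattle the sum was 11566 to 21700 in control and 8953 to 21852 in edited samples. Of 10 cumulus and granulosa cell markers, 2 were in the mouse table, with sums of 8.85 to 14.5 in control and 14.9 to 30.5 in edited samples. In the bovine table there were 6, with sums of 17.7 to 198 and 13.6 to 86.3. Of 8 blood cell markers, 3 were in the mouse table, with sums of 65.8 to 79.3 in control and 93.6 to 168 in edited samples, and their part in the changes of the carriers was not tested.

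In edited mouse morulae limma called 3 carriers that use glutamate higher (Slc25a22, Slc25a12 and Slc25a13) and 2 ADP/ATP carriers lower (Slc25a4 and Slc25a5). The other tested members, among them the glutamate carrier Slc25a18, did not pass. The calls of Slc25a13, Slc25a4 and Slc25a5 were each lost in some of the alternative fits. Among the 34 mouse carriers that reached a mean of 10 normalized reads, 3 rose and 2 fell at an adjusted p under 0.05 (limma on log2 values, Benjamini-Hochberg over 11386 genes). Of all tested genes 6.92% rose and 8.38% fell, so the share of carriers called, 14.7%, was near the 15.3% of all genes. At an unadjusted limma p under 0.05 there were 10 carriers of 34, against 28.6% of all genes. edgeR called the same 3 upward and 1 downward (7.12% and 7.54% of all genes), and DESeq2 the same 3 upward and 0 downward (5.43% and 6.94%), with 1 of 33 lower at its unadjusted p (12.6% of all genes). Control libraries 1 and 2 each weighed on the number of calls over all genes, which fell from 1742 to 580 without the former and to 601 without the latter. The log2 fold changes (edited minus control, on values plus 1) ran from -0.99 to 1.79 with a median of 0.06, against -0.0049 over all tested genes. Both groups stood apart with edited samples higher for 12 of the 34 carriers and lower for 7, where 28.6% and 29.2% of all tested genes did so. The remaining 8 mouse carriers had a mean under 10 and were only counted. The authors' deposited table listed the same 3 carriers as higher at an adjusted p under 0.05 and no carrier as lower, with 5.05% and 6.76% of its genes called in these directions.

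**Figure D1:**
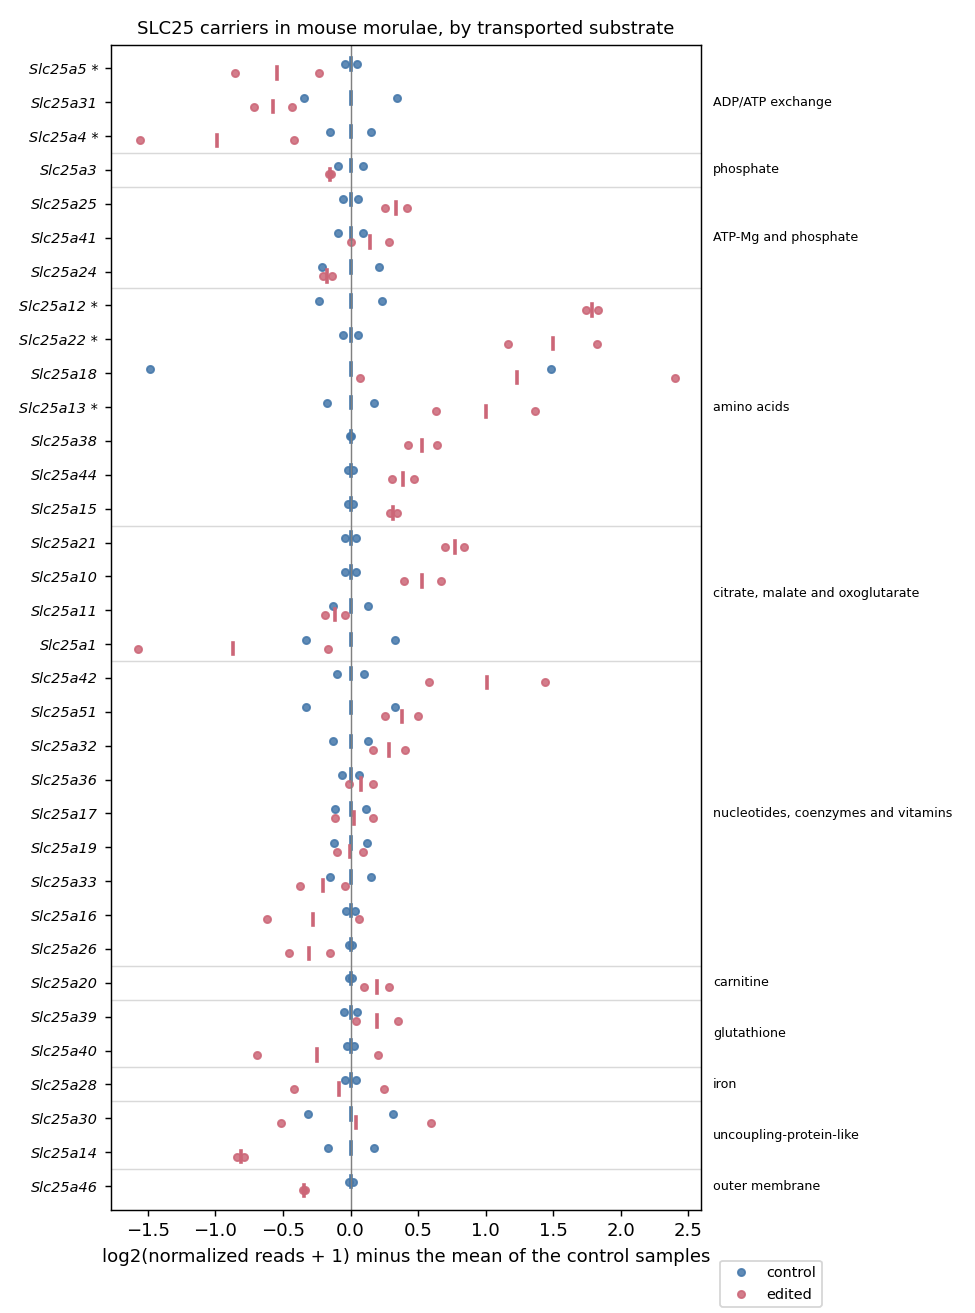
Level of each tested mouse carrier in each sample, as log2(normalized reads + 1) minus the mean of the 2 control samples (x axis), grouped by the substrate carried; points are samples, vertical ticks are group means, and an asterisk marks an adjusted p under 0.05. The edited samples of the 7 amino acid carriers lie to the right of the control mean, and those of the 3 ADP/ATP carriers to its left. Slc25a18 reached the mean of 10 only through its edited samples and Slc25a31 only through its controls, so their sides are not independent of that filter.

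The amino acid carriers held all 3 calls upward. Slc25a22 (GRCm38, chromosome 7, 141429744 to 141437892, minus strand), a carrier that brings glutamate into the matrix, had 129 and 119 normalized reads in its controls, against 440 and 279 after editing. Both edited samples were above both controls. Slc25a22 rose by 1.495 ± 0.25 on the log2 scale (SE, n = 2 per group, limma adjusted p = 0.00016), to 2.91 times the control mean.

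Slc25a12 and Slc25a13 encode the 2 aspartate/glutamate carriers, aralar and citrin, which send aspartate out of the matrix in exchange for glutamate. Slc25a12 (chromosome 2, 71271063 to 71367749, minus strand) had 42.5 and 30.4 normalized reads in its controls and 131 and 123 after editing, a log2 fold change of 1.79 ± 0.33 (limma adjusted p = 0.000519). Its edited samples differed from each other by less than its controls did. Slc25a13 (chromosome 6, 6041218 to 6217173, minus strand) had 93.9 and 120 in its controls and 165 and 276 after editing, a log2 fold change of 0.999 ± 0.27 (limma adjusted p = 0.0134). Its edited samples were both higher than the controls but 1 far more than the other. The calls of Slc25a22 and Slc25a12 held in each of 13 alternative fits, whereas that of Slc25a13 was lost without control library 1 (adjusted p = 0.196), control library 2 (0.0535) or edited library 2 (0.128, at a log2 fold change of 0.63).

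The coding sequences of Slc25a12 and Slc25a13 were 69.7% identical, with no identical run longer than 21 bases, and at most 0.254% of the 50-base words of the transcripts of Slc25a12, Slc25a13 and Slc25a22 occurred in a transcript of another gene in the GENCODE annotation. The 4 other tested carriers of this class had log2 fold changes of 0.32 to 1.24 and did not pass. They were Slc25a38, a glycine carrier (0.53, limma adjusted p = 0.145), Slc25a44, a carrier of branched-chain amino acids (0.39, limma adjusted p = 0.168), the ornithine carrier Slc25a15 (0.32) and Slc25a18 (1.24). Slc25a44, the member with the most reads, went from 529 and 543 to 742 and 662 normalized reads. Slc25a18, a second glutamate carrier, varied widely within both groups, with 16.8 and 1.26 in its controls and 32.4 and 5.67 after editing, and its groups overlapped. All 7 amino acid carriers tested thus had a positive log2 fold change, a sign held by 49.7% of all tested genes (50.3% were negative). Slc25a18 was tested only through its edited mean of 19.0, as its control mean was 9.01, and its sign rested on control library 2, at 1.26. The class was chosen with earlier results known, so no shift of the class is read from this count. The signs stayed positive in edgeR, in DESeq2 and with every sample scaled to the same total, where the median of all genes moved to 0.12. The class was not followed through fits with 1 library left out.

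The ADP/ATP carriers are the most abundant proteins of the inner membrane in many tissues, and mouse has Slc25a4, Slc25a5 and the germ-cell member Slc25a31. The copies are alike enough that assignment of short reads has to be weighed, so the coding stretch around their shared signature motif is shown here, from the GENCODE M21 transcripts of GRCm38, 5′ to 3′, bases 676 to 747 of the coding sequence in Slc25a4 and Slc25a5 and 715 to 786 in Slc25a31. Capitals mark bases that differ from Slc25a4, 13 in Slc25a5 and 30 in Slc25a31.
Slc25a4: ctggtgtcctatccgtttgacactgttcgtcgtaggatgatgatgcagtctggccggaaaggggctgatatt
Slc25a5: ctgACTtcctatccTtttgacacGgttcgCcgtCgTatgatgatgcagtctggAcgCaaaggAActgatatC
Slc25a31: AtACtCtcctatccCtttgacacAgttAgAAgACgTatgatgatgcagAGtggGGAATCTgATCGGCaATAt

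Over the whole coding sequence Slc25a4 and Slc25a5 were 77.4% identical, with a longest identical run of 20 bases, and Slc25a31 was 61.2% identical to each of them. No 50-base word of Slc25a4 occurred in a transcript of another gene. Slc25a5 was different, since 46.6% of its 50-base words occurred in transcripts of 9 other genes, such as Gm5560, Gm5529 and Slc25a5-ps. None of the 9 had a row in the mouse table. The counting of reads with several matches is not given in the sources used here, and the level of Slc25a5 is uncertain for that reason.

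Slc25a4 (chromosome 8, 46206797 to 46211284, minus strand), the isoform of heart and muscle, had 1487 and 1843 normalized reads in its controls, against 562 and 1235 after editing. Both edited samples were lower, edited library 1 by far the most. The log2 fold change was -0.99 ± 0.23 (limma adjusted p = 0.00469), and the edited mean was 54.0% of the control mean. The call was lost without edited library 1 (-0.42, adjusted p = 0.112), without control library 2 (-0.84, adjusted p = 0.117) and with DESeq2 (-0.89, adjusted p = 0.322), while edgeR kept it (adjusted p = 0.0156).

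Slc25a5 (chromosome X, 36795651 to 36798807, plus strand), the isoform of proliferating cells, went from 3993 and 3757 to 2145 and 3289 normalized reads, with edited library 1 again the lower of the pair. Its log2 fold change was -0.54 ± 0.18 (limma adjusted p = 0.0378). That call stood in only 4 of the 13 alternative fits: it was lost with edgeR (adjusted p = 0.0600) and DESeq2 (0.0711), and in each fit that left out 1 library except that without edited library 2. The longest annotated transcript of Slc25a5 has 1240 nucleotides and falls in the shortest of 10 equal length groups of tested genes (66 to 1281 nucleotides), whose median log2 fold change was -0.47. After removal of the trend with transcript length, Slc25a5 was at -0.22 (adjusted p = 0.413) and Slc25a4, of 1925 nucleotides, at -0.90 (adjusted p = 0.0310). Slc25a31 was low, with 19.0 and 11.4 normalized reads in its controls and 8.58 and 10.6 after editing, and did not pass (-0.58 ± 0.66). It was tested only through its control mean of 15.2, as its edited mean was 9.61, so its negative sign is not read as a result. Together the 3 genes took 42.2% and 43.8% of the reads of all 42 carriers in control samples and 25.1% and 35.5% in edited samples. The phosphate carrier gene Slc25a3 (chromosome 10, 91116574 to 91124059, minus strand) did not pass. It had 2663 and 2349 in its controls and 2267 and 2241 after editing, a log2 fold change of -0.15 ± 0.16 with a 95% confidence interval from -0.48 to 0.18.

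**Figure D2:**
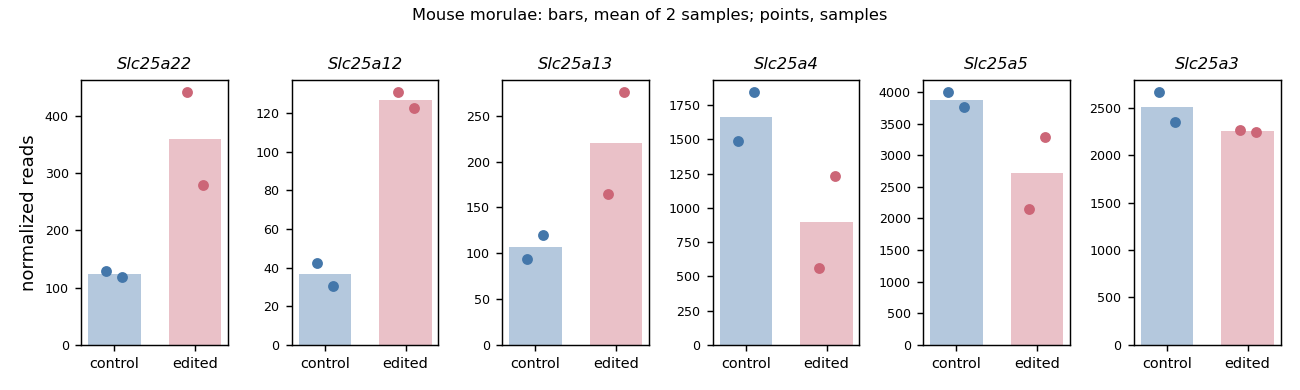
Normalized reads (y axis, from 0, with its own scale per gene) of the 5 mouse carriers that passed and of the phosphate carrier Slc25a3 in control and edited morulae; bars are means of 2 samples and points are samples. The edited samples of Slc25a22, Slc25a12 and Slc25a13 stand above their controls, and those of Slc25a4 and Slc25a5 below them, with the 2 edited samples of Slc25a4 at 562 and 1235.

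**Figure D3:**
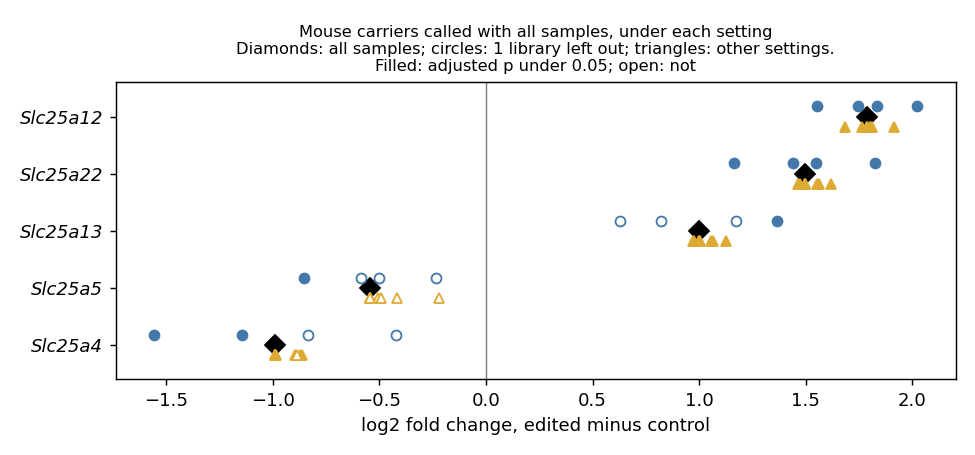
Log2 fold change (x axis, edited minus control) of the 5 mouse carriers called with all samples, under each setting; diamonds are the values with all samples, circles the fits that leave out 1 library, triangles the other settings, and open symbols have an adjusted p of 0.05 or more. All symbols keep the side of 0 of the diamond, Slc25a12 and Slc25a22 are filled throughout, and Slc25a5 is open in 9 of 13 alternatives.

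Per kilobase of longest transcript, Slc25a5 led the family in control morulae with 3125 normalized reads per kilobase, followed by Slc25a4 with 865, the glutathione carrier gene Slc25a39 with 775 and Slc25a3 with 620. In edited morulae the levels per kilobase were 2191, 467, 893 and 558, so Slc25a39 stood above Slc25a4. The 3 carriers that rose were far lower, with control levels of 34.3 (Slc25a13), 22.1 (Slc25a22) and 5.73 (Slc25a12) and edited levels of 70.6, 64.3 and 19.9 per kilobase. The annotated longest transcript may not be the one used in the embryo, so this order holds for that length only.

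Carriers of di- and tricarboxylic acids did not move together in mouse. Slc25a10, the dicarboxylate carrier, went from 196 and 185 to 250 and 303 normalized reads, a log2 fold change of 0.53 ± 0.23 that did not pass (adjusted p = 0.120) except when every sample was scaled to the same total (0.66, adjusted p = 0.0472). The citrate carrier Slc25a1, with 67.0 and 106 in its controls and 27.7 and 75.1 after editing, had a value of -0.87 ± 0.40 (adjusted p = 0.143), and its groups overlapped. The oxodicarboxylate carrier Slc25a21 was at 0.77 ± 0.42 and the oxoglutarate carrier Slc25a11 at -0.12 ± 0.24, and neither passed. Of 9 carriers of nucleotides, coenzymes and vitamins, 0 passed in limma, edgeR and DESeq2, where 15.3% of all tested genes passed in limma. With so few carriers nothing particular to this class is read from this. The coenzyme A carrier Slc25a42, at 1.01 ± 0.49 (limma adjusted p = 0.170), was the 1 member of this class with an unadjusted limma p under 0.05. Of all tested genes 28.6% had such a p. Slc25a36, a pyrimidine nucleotide carrier with the most reads of this class, had 342 and 374 normalized reads in its controls and 402 and 356 after editing.

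The other classes had few members and none passed, where 15.3% of all tested genes passed in limma. With so few members nothing particular to these classes is read from this. The ATP-Mg carriers, which move adenine nucleotides against phosphate, were at -0.17 to 0.34. Slc25a41 was at 0.14, with 175 and 200 normalized reads in its controls and 228 and 188 after editing. Slc25a20, which carries acylcarnitines for fatty acid oxidation, had 441 and 435 in its controls and 535 and 469 after editing (0.19 ± 0.19). Slc25a39 had 1260 and 1350 in its controls and 1344 and 1663 after editing (0.20 ± 0.17). The iron carrier Slc25a28 was at 72.6 and 68.3 against 83.9 and 52.4, and its log2 fold change of -0.08 ± 0.34 turned to 0.040 with equal totals. Slc25a14, close to the uncoupling proteins in sequence, was at 54.8 and 43.0 against 26.7 and 27.6 (-0.81 ± 0.41, adjusted p = 0.191). The outer membrane member Slc25a46 was at 58.1 and 56.9 against 44.8 and 45.4 (-0.34 ± 0.36). In both of these genes the groups did not overlap, with edited samples lower, as in 29.2% of all tested genes.

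Genes that work with the carriers were looked up in 3 lists. Newly made carriers reach the inner membrane through a receptor of the outer membrane, small chaperones of the intermembrane space and a dedicated translocase. Of 6 tested genes of this import route, 0 passed in limma, edgeR or DESeq2, where 15.3% of all tested genes passed in limma. Timm10 (-0.47, limma adjusted p = 0.0880) and Tomm70a (-0.43, limma adjusted p = 0.159) were the 2 with an unadjusted limma p under 0.05. Of all tested genes 28.6% had such a p, so nothing particular to this route is read from these 2. Of 11 tested genes of other mitochondrial membrane transport, 1 rose (Sfxn4) and 3 fell (Vdac2, Vdac3 and Mtch2), where 6.92% of all tested genes rose and 8.38% fell. With so few genes nothing particular to the list is read from this. Sfxn4, of the sideroflexin family of the inner membrane, had 43.6 and 13.9 normalized reads in its controls and 175 and 53.2 after editing (1.92 ± 0.48, limma adjusted p = 0.0073). That call was lost with DESeq2 (adjusted p = 0.254) and when either control library 2 or edited library 1 was left out (1.13 and 1.07, with adjusted p of 0.193 and 0.187). The voltage-dependent anion channel gene Vdac2 went from 1196 and 1093 to 596 and 746 normalized reads (-0.78 ± 0.18), and Mtch2, a carrier relative of the outer membrane, from 2067 and 1938 to 1121 and 1386 (-0.68 ± 0.17). The calls of Vdac2 and Mtch2 were each lost without either control library (adjusted p of 0.0602 to 0.146).

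Among 12 tested enzymes that share metabolites with the carriers, 1 rose and 1 fell, a share near the 15.3% of all tested genes that passed. Glud1, which encodes the glutamate dehydrogenase of the matrix, rose from 350 and 457 to 590 and 821 normalized reads (0.80 ± 0.21, adjusted p = 0.00906), a call that needed control library 1 (adjusted p = 0.236 when it was left out). Mdh2, the malate dehydrogenase of the matrix, fell from 5488 and 4103 to 3308 and 3398 (-0.50 ± 0.17, adjusted p = 0.0391), a call lost in 6 of 13 alternatives. The other enzymes of the malate-aspartate shuttle did not pass, with Got1 at -0.47, Got2 at 0.44 and Mdh1 at -0.34.

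In bovine blastocysts no carrier passed. Of 38 carriers, 26 reached a mean of 10 normalized reads, and 0 of these 26 rose or fell in limma, edgeR or DESeq2 at an adjusted p under 0.05, where 0.0113% of all 8884 tested genes passed in limma and edgeR and 0.0563% in DESeq2. At an unadjusted p under 0.05, limma, edgeR and DESeq2 each gave 1 carrier, against 5.88%, 6.02% and 6.38% of all genes. Log2 fold changes ran from -0.49 to 0.38 with a median of 0.05, against 0.01 over all tested genes, and their standard errors from 0.20 to 0.37. The sign was positive for 16 and negative for 10, against 51.5% and 48.5% of all genes. For no carrier did the groups stand apart, where 0.09% (higher) and 0.158% (lower) of all tested genes did. The authors' deposited table listed 0 of 38 carriers at an adjusted p under 0.05, where it called 0.0202% of its genes.

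**Figure D4:**
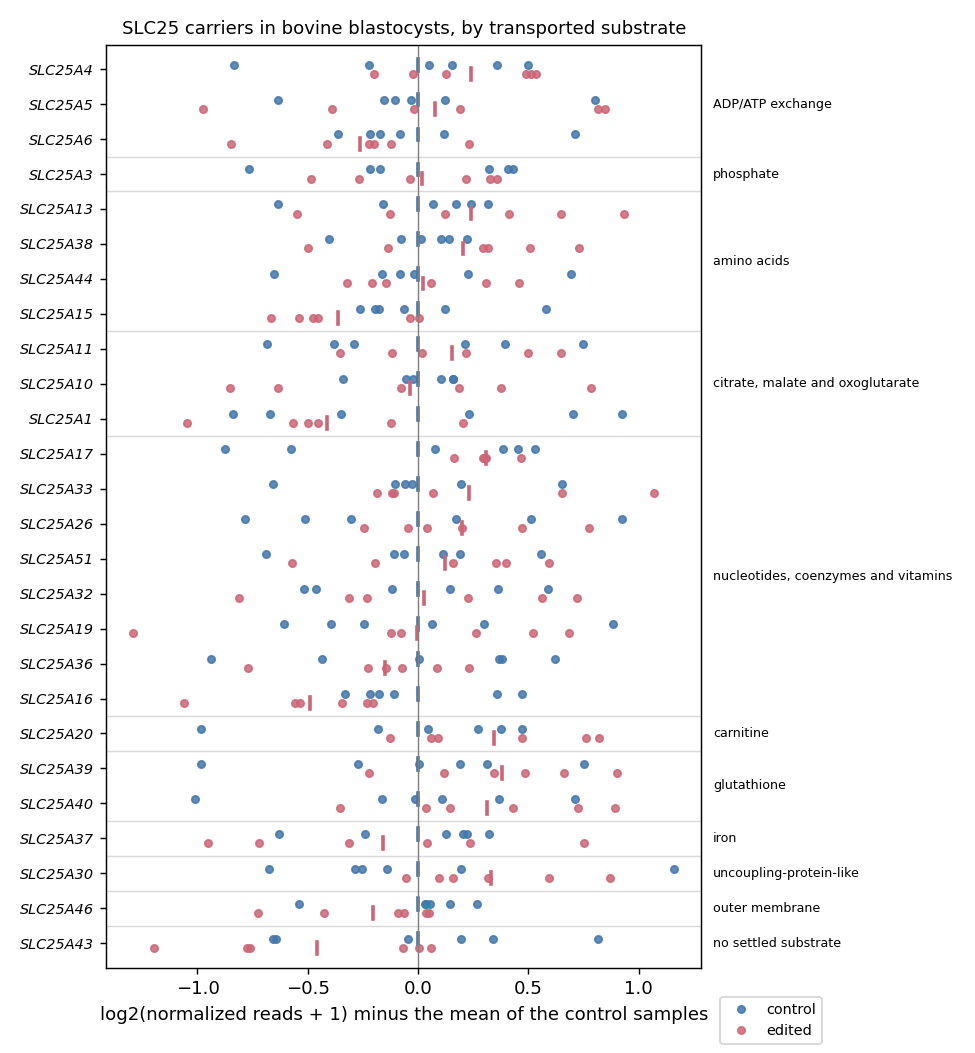
Level of each tested bovine carrier in each sample, as log2(normalized reads + 1) minus the mean of the 6 control samples (x axis), grouped by the substrate carried; points are samples and vertical ticks are group means. Control and edited samples overlap for all 26 carriers, and the mean shifts lie between -0.49 and 0.38.

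Among the ADP/ATP carriers, cattle express SLC25A6 besides SLC25A4 and SLC25A5. SLC25A4 had its lowest, median and highest values at 45.2, 87.5 and 116 normalized reads in its controls, and 70.7, 102 and 119 after editing. All edited values lay above the 2 lowest controls, at a log2 fold change of 0.24 ± 0.23 (n = 6 per group) with a 95% confidence interval from -0.23 to 0.71. SLC25A5 had 1737, 2569 and 4704 in control and 1371, 2871 and 4844 in edited samples. Its spread within each group was wide (0.08 ± 0.28, interval from -0.50 to 0.66), and the sign turned without control library 6 or without edited library 4 or 5. SLC25A6 had 332, 391 and 701 in control and 237, 369 and 502 in edited samples (-0.26 ± 0.20, adjusted p = 0.799). SLC25A31 had a mean under 10. The ADP/ATP carriers took 52.9% to 72.0% of the reads of all carriers in control and 43.4% to 73.0% in edited samples. The phosphate carrier SLC25A3 had 602, 1097 and 1383 in control and 733, 1097 and 1317 in edited samples, so that the medians of both groups fell together (0.02 ± 0.21, interval from -0.43 to 0.46).

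The bovine carrier with an unadjusted p under 0.05 was SLC25A16, with 67.4, 76.9 and 118 in control and 40.2, 62.5 and 73.6 in edited samples (-0.49 ± 0.21, limma adjusted p = 0.792). The groups overlapped between 67.4 and 73.6, and the highest edited sample was below the control median. The next lowest p-values with a negative sign belonged to the ornithine carrier SLC25A15 (-0.36 ± 0.22) and SLC25A43 (-0.46 ± 0.31), a member without a settled substrate. SLC25A15 had 31.5, 35.0 and 57.5 in control and 23.6, 27.3 and 38.2 in edited samples. With a positive sign they belonged to SLC25A39 (0.38 ± 0.25), the acylcarnitine carrier SLC25A20 (0.35 ± 0.26) and the peroxisomal carrier SLC25A17 (0.31 ± 0.23). SLC25A39 had 75.4, 161 and 254 in control and 128, 200.8 and 282 in edited samples. SLC25A20 had 19.0, 43.3 and 53.9 in control and 35.2, 47.4 and 68.7 in edited samples. SLC25A17 ranged from 36.5 to 98.5 in control but only from 76.0 to 94.1 in edited samples.

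Of the bovine carriers with the most reads in the remaining classes, SLC25A11 had a median of 95.3 in control and 105 in edited samples (0.15 ± 0.24), SLC25A44 of 58.4 and 58.8 (0.02 ± 0.22), and SLC25A36 of 105 and 84.9 (-0.15 ± 0.25). The iron carrier SLC25A37 had medians of 40.4 and 32.8 (-0.16 ± 0.28) and SLC25A46 of 53.5 and 49.1 (-0.20 ± 0.21). SLC25A30, close to the uncoupling proteins in sequence, had medians of 37.3 and 50.8 (0.33 ± 0.27), with control library 1 at 97.3 above all other bovine samples. Across all 38 carriers the sum took 0.239% to 0.504% of the normalized reads in control and 0.272% to 0.567% in edited samples. Control library 6, the lowest of these, had 36.6% of its reads on the 18S ribosomal RNA gene RN18S1. The other controls had 12.4% to 25.2% and the edited libraries 9.27% to 19.7%. The totals behind the carrier shares include RN18S1, and its part in them was not tested. Of the related genes in cattle, 0 of 7 for carrier import, 0 of 12 for other membrane transport and 0 of 12 enzymes passed in limma, edgeR or DESeq2. Of all tested genes in cattle only 0.0113% passed in limma and edgeR and 0.0563% in DESeq2. Nothing particular to the related genes is therefore read from the lack of calls. None of the related genes had an unadjusted limma p under 0.05, against 5.88% of all tested genes.

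The changes of both species were compared for the 23 carriers tested in both. The tables were normalized separately and differ in stage as well as species, which cannot be told apart. The difference of the log2 fold changes was tested with both standard errors and adjusted over 7073 genes tested in both tables, of which 6.07% passed (2.38% higher and 3.69% lower in mouse). Of the carriers 1 of 23 passed, SLC25A4, whose change was lower in mouse by -1.23 ± 0.33 (adjusted p = 0.0176, n = 2 per group in mouse and 6 per group in cattle). This call was lost without mouse edited library 1 (-0.66, adjusted p = 0.214) and without mouse control library 2 (-1.08, adjusted p = 0.124). SLC25A13, at 0.999 in mouse and 0.24 in cattle, did not pass (difference 0.76 ± 0.39, adjusted p = 0.248), nor did SLC25A5 (-0.62 ± 0.33, adjusted p = 0.273). SLC25A12 and SLC25A22, which rose in mouse, had a mean under 10 in cattle and were not among the 23. With no filter on low values, an alternative chosen after seeing the data that compares all 36 shared symbols, these 2 did not pass, and SLC25A4 was the 1 carrier called (adjusted p = 0.0276).

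**Figure D5:**
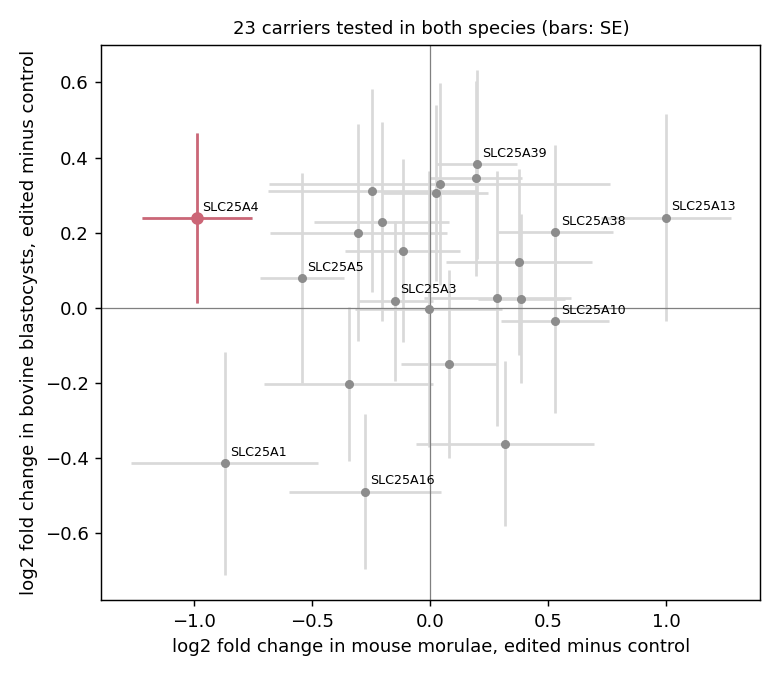
Log2 fold change (edited minus control) in mouse morulae (x axis) and bovine blastocysts (y axis) of the 23 carriers tested in both; points are carriers, bars are standard errors, and the coloured point is SLC25A4, the carrier whose change differed at an adjusted p under 0.05. SLC25A4 lies at -0.99 in mouse and 0.24 in cattle, and SLC25A13 at 0.999 and 0.24.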

How the data were processed

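Libraries were made from polyadenylated RNA by Smart-seq2, per the labels' protocols. Trimmomatic, HISAT2, featureCounts and DESeq2 and the builds mm10 and ARS-UCD1.2 are named in the submitters' processing notes, and their versions and the strand setting are not given in the sources used here. The deposited signal values stand beside DESeq2 columns, per the file headers. In each sample they are whole multiples of a single step (100% of values, tolerance 0.05 reads), and they were read as gene counts divided by a size factor per sample. The authors' log2 fold changes and p-values were quoted under the name of their table, and the authors' test statistic (score) was not used.

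Genes with a mean of at least 10 were tested within each species by limma 3.58.1 on log2(value + 1) with a mean trend, adjusted by Benjamini-Hochberg at 0.05. On this scale changes of low genes are understated. edgeR 4.0.16 and DESeq2 1.42.0 on recovered reads were alternatives. Other alternatives were pseudocounts of 0.5 and 5, no filter or a mean of at least 50, equal totals, a replicate block, removal of the length trend (mouse) and each library left out. A count of 0 allows up to 3 reads, which are 2.13 to 3.79 normalized reads in mouse and 1.71 to 5.56 in cattle, for counting error only. All 42 mouse carriers matched GENCODE M21 (GRCm38), which gave positions, lengths and sequences. The limma step was tested on simulated data with independent samples, which cannot show how it behaves under effects that samples share.

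Named with values were carriers that passed, the ADP/ATP and phosphate carriers, the carrier with the most reads in each class and, in cattle, the 3 lowest p-values in each direction. Carriers outside this rule were added after their values were seen, to describe their class. Members, classes and lists were chosen with earlier results of these data known, and 1 gene of these lists is not reported here.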

Additional observations from a re-analysis of the deposited data

Results flagged for a closer look

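A test of the difference between species singled out SLC25A4, whose log2 fold change was lower in mouse morulae than in bovine blastocysts by -1.23 (adjusted p = 0.0176). It was 1 of 23 carriers, where 6.07% of all genes tested in both species passed. The difference ran from -1.80 to -0.66 with 1 library left out, and the call was lost in 2 of 21 alternatives. Single samples far from the other 5 of their group were found in 3 of 52 bovine groups, where chance alone gives about 1 in 20. They were SLC25A30 in control library 1 (97.3 normalized reads, the nearest other control at 49.2), SLC25A6 in the same library (701, the nearest at 463) and SLC25A46 in control library 2 (35.4, the nearest at 53.1). Mouse groups were too small for this check. With each library left out in turn, the log2 fold change of SLC25A30 was 0.19 to 0.56, that of SLC25A6 -0.36 to -0.12 and that of SLC25A46 -0.31 to -0.10, and none of them passed.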

How the results depend on the processing

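The number of mouse carriers that rose, 3, stayed between 2 and 4 in all 13 alternatives. The number that fell, 2, was 0 with DESeq2 and 1 with edgeR, equal totals, the length trend removed, no filter on low values or the replicate block, and 0 to 3 with 1 library left out. The median log2 fold change of mouse carriers, 0.06, was 0.12 with DESeq2, 0.14 with edgeR, 0.18 with equal totals (0.12 over all genes), and 0.11 with the length trend removed, with no filter and with a mean of at least 50, and 0.045 to 0.13 with 1 library left out. With equal totals 4 carriers rose and 1 fell, and the calls over all mouse genes turned from 45.2% to 62.0% higher. In cattle 0 carriers passed in any of 20 alternatives, and the median stayed between 0.0023 and 0.17. The number of carriers that differed between species was 0 to 1 with 1 library left out, an alternative chosen after seeing the data. Among the carriers named by the rule given above, signs turned only for some that had not passed. They were Slc25a28 (0.040 with equal totals, -0.42 to 0.25 with 1 library left out), Slc25a36 (-0.0081 to 0.17 with 1 library left out), SLC25A3 (-0.012 with DESeq2, -0.0085 with edgeR, -0.13 to 0.12), SLC25A44 (-0.035 with DESeq2, -0.029 with edgeR, -0.11 to 0.16) and SLC25A5 (-0.075 to 0.29). Carriers outside that rule were not followed through each setting. The causes were not tested. In cattle the replicate numbers of the titles paired no samples beyond the number. Same-numbered samples there correlated at -0.19 to 0.34, and 2 of 12 samples correlated best with their own number. In mouse the correlation was 0.11. With 2 samples per group the deviations from the group mean mirror each other. Both mouse pairs therefore share this 1 value, and it cannot decide whether samples were paired. With the replicate block 3 mouse carriers rose and 1 fell, Slc25a5 being lost (adjusted p = 0.0508), and 0 bovine carriers passed. With 2 mouse samples per group, a fit without 1 library assumes that the lone sample varies like the other group.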
